A study of Mus musculus with 27 samples.

Results

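Neutrophils and their bone marrow precursors carry very abundant transcripts for granule proteins, and 10 of these genes are described here across mouse osteosarcomas and their metastases: Mpo, Elane, Prtn3, Ctsg, Ltf, Camp, Ngp, Mmp8, S100a8 and S100a9. They were found as the probes whose platform annotation carries 1 of these symbols, and where a gene had several probes the brightest by its mean on the 27 arrays was taken. All 10 genes had a probe, of 19057 genes named on the array. Mpo had 4 probes, Ltf had 2 and each of the other genes had 1. Total RNA from 2 liver metastases, 7 lung metastases, 12 primary tumours that gave metastases and 6 localized primary tumours was hybridised to 1 single-colour Illumina bead array per sample. The primaries of all 7 lung metastases are among the 12 metastatic primaries. Of the liver metastases, CR-147 comes with a primary and a lung metastasis of the same specimen code, and no primary of RF-342 was used here. All groups came from 1 breeding scheme on a C57BL/6 background: the Col2.3-Cre transgene, in which a rat Col1a1 promoter expresses Cre recombinase in the osteoblast lineage, was combined with either a floxed p53 allele or the conditional mutant allele LSL-p53R172H. Which allele a tumour carried, the age of the mice and whether each specimen is a separate animal are not given in the labels. Specimens, not animals, are therefore the units of the p-values. For the primaries they measure the spread between specimens, and for the lung pairs the spread of the differences within specimens. The liver fits allow for samples that share a specimen code. Specimen codes are used as names below, and levels are log2 normalized intensities, so that 1 unit is a doubling.

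Neutrophil granules are filled in sequence while the cell matures in the bone marrow. Azurophil granules are made first, at the promyelocyte stage, and hold myeloperoxidase (Mpo), which makes hypochlorous acid, together with the serine proteases neutrophil elastase (Elane), proteinase 3 (Prtn3) and cathepsin G (Ctsg). Specific and gelatinase granules follow at the myelocyte stage and later, and hold the iron-binding lactotransferrin (Ltf), the cathelicidin precursor of an antimicrobial peptide (Camp), neutrophilic granule protein (Ngp) and neutrophil collagenase (Mmp8). S100a8 and S100a9 encode the subunits of the cytosolic calcium-binding protein calprotectin, which stays abundantly expressed in mature neutrophils and is also found in monocytes and in inflamed skin epithelium. Transcripts of the early granule genes are therefore used as markers of marrow precursors, and those of S100a8 and S100a9 as markers of mature cells too. In bulk tissue, fewer cells of a type and less RNA per cell cannot be told apart.

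The upstream sequence of the early and the late granule genes is shown because these genes are switched on at different stages by different factors. All 10 genes matched a RefSeq promoter (build GRCm38.p6), and the 250 bases before each gene's start were searched on both strands for 10 short motifs. AGGAAGT, the kind of site that the myeloid factor PU.1 (Spi1) can bind, was found upstream of 4 of 4 early granule genes, 1 of 4 late granule genes (Mmp8) and 1 of the 2 cytosolic genes (S100a8), against 7.69% of 32851 promoters. It lies inside the longer GAGGAAGT in 3 of the 4 early genes (Mpo, Elane and Prtn3) and also in Mmp8 and S100a8, against 2.44% of promoters. Its shorter form AGGAAG did not separate the stages in this way: it was found upstream of 4 of 4 early genes, 3 of 4 late genes (Ltf, Camp and Mmp8) and 1 of 2 cytosolic genes, against 29.5% of promoters. TTGCNNAA, a form of the site of C/EBP factors, was found upstream of 0 of 4 early granule genes, 3 of 4 late granule genes (Ltf, Ngp and Mmp8) and 1 of 2 cytosolic genes (S100a9), against 9.56% of promoters. These motifs were chosen for display after the matches were seen, and a match is a description of letters in the window, not of binding. Below, the windows run 5′ to 3′ along the gene, with the motif, or for Ltf its reverse complement, in capitals:
Mpo (chr11:87793534-87793607, plus strand): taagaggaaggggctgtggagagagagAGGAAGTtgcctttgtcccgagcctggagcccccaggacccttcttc
Elane (chr10:79886188-79886274, plus strand): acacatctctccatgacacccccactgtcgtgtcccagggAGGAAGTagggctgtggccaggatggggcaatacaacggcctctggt
Prtn3 (chr10:79879533-79879619, plus strand): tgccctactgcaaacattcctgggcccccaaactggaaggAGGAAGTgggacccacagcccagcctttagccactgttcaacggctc
Ctsg (chr14:56102734-56102820, minus strand): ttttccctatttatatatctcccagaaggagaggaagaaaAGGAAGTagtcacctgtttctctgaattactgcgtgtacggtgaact
Ltf (chr9:111019177-111019264, plus strand): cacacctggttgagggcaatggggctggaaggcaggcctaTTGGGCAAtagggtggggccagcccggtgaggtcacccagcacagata
Ngp (chr9:110419630-110419717, plus strand): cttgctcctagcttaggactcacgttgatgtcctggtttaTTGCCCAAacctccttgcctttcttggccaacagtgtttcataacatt

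The first base of the capitals lies 223 bases before the start of Mpo, 84 before that of Elane, 94 before that of Prtn3, 206 before that of Ctsg, 75 before that of Ltf and 138 before that of Ngp. Elane and Prtn3 are neighbouring protein-coding genes on chromosome 10, and S100a8 and S100a9 are neighbours on chromosome 3. Ltf, Camp, Ngp and Mmp8 all lie on chromosome 9, each with other protein-coding genes on both sides.

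Some arrays stand apart from their labels. The osteoblast marker list (9 genes on the array, with Bglap2, Ibsp and Col1a1 among the listed names) averaged 6.10 to 7.16 in 4 primaries, the metastatic CR-45 and FC-28 and the localized CR-65 and RF-56, against 11.4 to 13.0 in the other primaries, and it was 5.67 in the FC-28 lung metastasis. All 6 lung epithelium markers were detected in every lung metastasis (list mean 12.6 to 14.4) and in the CR-147 liver metastasis (10.3). Hepatocyte transcripts averaged 12.9 and 13.0 in the liver metastases, but also 9.55 to 10.6 in the lung metastases of RF-364, CR-147 and RF-379, against 4.82 to 6.25 in the other 4. Between 42.6% and 47.5% of probes were detected per array, with a median of 41 to 44 beads behind each probe. The background signal of an array was taken as the median signal of the probes not detected on it. This background was below 56.4 on 15 arrays: both liver metastases, all 7 lung metastases, 2 metastatic primaries (RF-104 and FC-28) and 4 localized primaries.

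Of the early granule genes, Mpo was detected on 24 of 27 arrays, Elane on 19, Prtn3 on 16 and Ctsg on 16. The late granule genes Ltf and Camp were each detected on 26 arrays and Ngp on 21, while Mmp8 was detected on 2. S100a8 and S100a9 were detected on all 27. The metastatic primary RF-104 carried the highest level of each of the early genes, with Mpo at 14.33, Elane at 12.37, Prtn3 at 12.26 and Ctsg at 11.69, and of Ltf, Camp and Ngp, at 13.74, 13.43 and 13.20. The metastatic primary RF-379 had the second highest Mpo and Elane, at 12.95 and 10.25. RF-104 and the FC-28 lung metastasis were the only arrays on which all 10 genes, Mmp8 included, were detected.

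**Figure D1:**
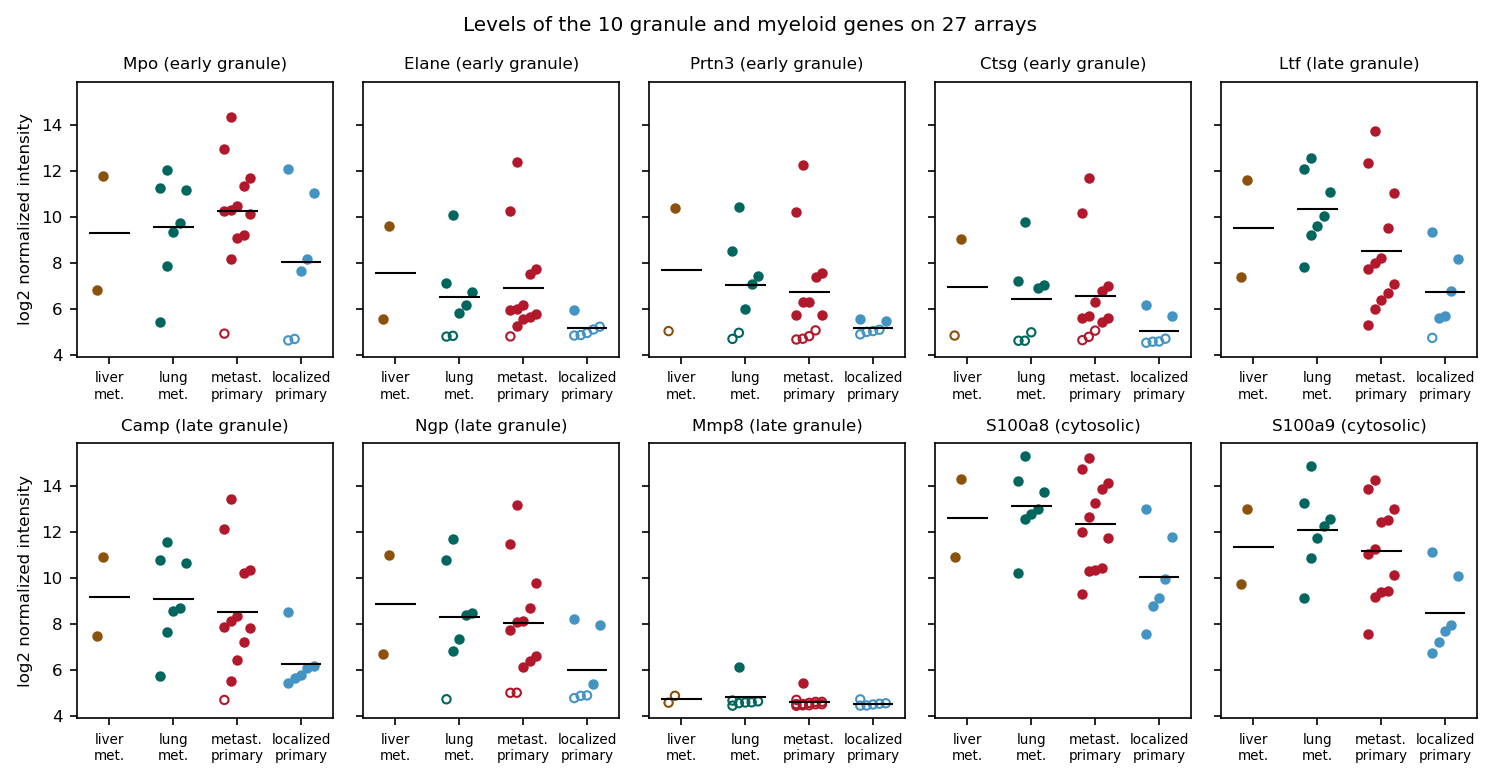
Each panel plots 1 gene, with the 4 groups along the x axis and the log2 normalized intensity on the y axis. Points are single arrays, open points are arrays on which the probe was not detected, and horizontal bars are group means. Within each group the levels of Mpo, Ltf, Camp, Ngp, S100a8 and S100a9 spread over several log2 units, and Mmp8 is open on all but 2 arrays.

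Elane, Prtn3 and Ctsg, the serine proteases of azurophil granules, varied together over the 18 primaries, with Spearman correlations of 0.82 for Elane with Prtn3, 0.814 for Prtn3 with Ctsg and 0.74 for Elane with Ctsg. Mpo correlated at 0.604 with Elane, 0.484 with Prtn3 and 0.397 with Ctsg, although all 4 are stored in the same granule. Ltf, Camp and Ngp varied together, at 0.878 to 0.928, and S100a8 and S100a9 at 0.977. Between stages, Elane with Camp reached 0.942, Ctsg with Ltf 0.944 and Ctsg with S100a8 0.862. Mpo gave 0.62 with Camp, above its value with Elane, and 0.183 with S100a8. Over the 7 lung metastases Mpo gave 0.679 with Elane, 0.607 with Prtn3 and 0.75 with Ctsg. It gave 0.821 with Camp and 0.536 with S100a8 there. The values over the primaries describe the same 18 arrays, all arrays share 1 normalization, and many of the low levels of the proteases lie at the detection limit.

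The localized primary RF-191 shows the separation of Mpo from the proteases in a single tumour. Its Mpo level was 12.08, the highest of the localized primaries and above those of 10 of the 12 metastatic primaries. Elane at 4.86, Prtn3 at 5.03, Ctsg at 4.57 and Ngp at 4.79 were not detected on the same array, and its S100a8 at 7.58 and S100a9 at 6.74 were the lowest of all 27 arrays. Of the 3 other Mpo probes, 2 were also detected in RF-191, at 11.58 and 9.69, while the last, at 4.61, was not. Over the 27 arrays these probes correlated with the one used at 0.998, 0.947 and 0.6 (Pearson), in the same order. The metastatic primaries CR-113A and RF-89 held Mpo at 11.69 and 11.32 with each protease at 5.93 or below.

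**Figure D2:**
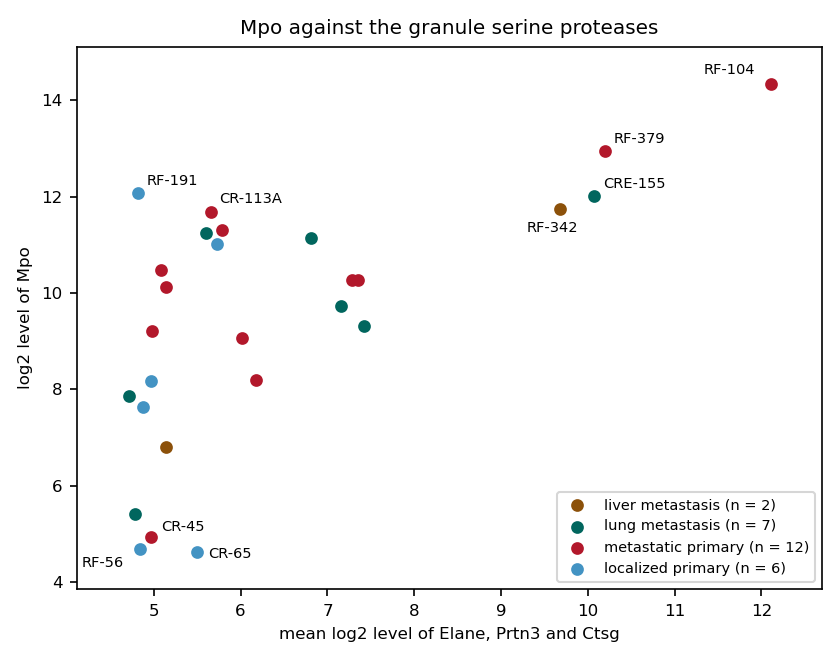
The mean log2 level of Elane, Prtn3 and Ctsg is on the x axis and the log2 level of Mpo on the y axis, with 1 point per array coloured by group. RF-104, RF-379, the CRE-155 lung metastasis and the RF-342 liver metastasis are high on both axes, and RF-191 is high on the Mpo axis alone.

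Mpo was at the detection limit in 3 of the 4 primaries with few osteoblast transcripts. It was not detected in the metastatic CR-45 at 4.92 or in the localized CR-65 and RF-56 at 4.63 and 4.69, and it was 8.18 in the fourth such primary, FC-28. In the 14 primaries with osteoblast transcripts, by comparison, Mpo was detected in each and was at least 7.63. The FC-28 lung metastasis, with osteoblast markers at 5.67, had Mpo at 9.32. The split was noticed in these data and rests on 4 primaries, and which cells carried the Mpo RNA was not tested.

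**Figure D3:**
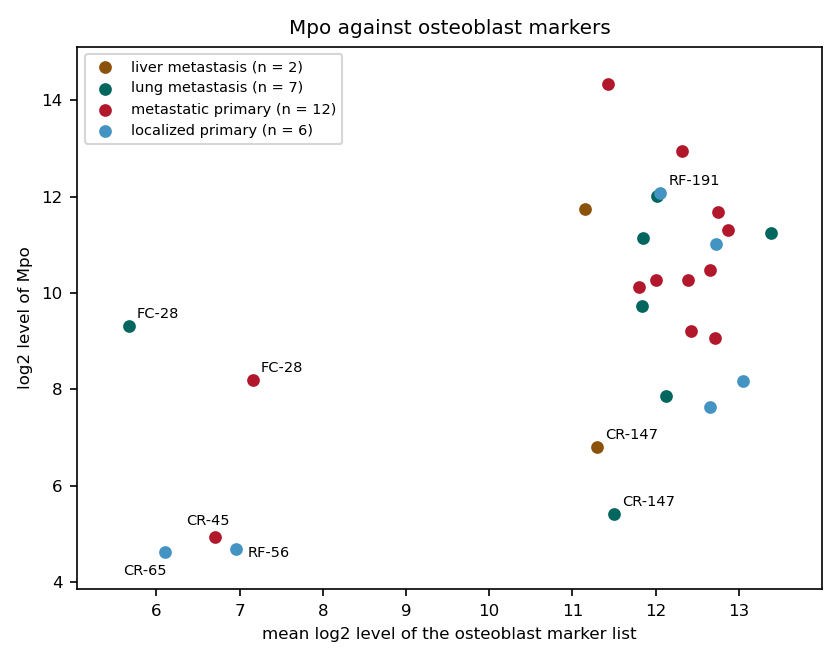
The mean log2 level of the osteoblast marker list is on the x axis and the log2 level of Mpo on the y axis, 1 point per array. The primaries CR-65, RF-56 and CR-45 lie in the lower left with Mpo between 4.63 and 4.92, and RF-191 lies high at an osteoblast list mean of 12.1.

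S100a8 and S100a9 parted from the granule genes in the metastatic primary CR-45. Its S100a8 level of 14.13 and S100a9 level of 12.99 both ranked just below RF-104 and RF-379 among the 12 metastatic primaries. Mpo at 4.92, Elane at 4.80, Prtn3 at 4.67, Camp at 4.71 and Ngp at 5.02 were not detected there, and Ctsg at 5.43 and Ltf at 5.28 were detected just above the limit. Markers of mature neutrophils were present in CR-45, with all 11 of the listed genes on the array detected and a list mean of 8.29, among them Retnlg at 9.59, the chemokine receptor gene Cxcr2 at 6.93 and Il1b at 11.18. CR-45 also held the highest Krt14 level of the 27 arrays, 12.5, and Krtdap, another keratinocyte gene, at 9.88; S100a8 and S100a9 are also keratinocyte genes, and the part of these cells in the 2 levels was not tested. The localized primary RF-43 held Krt14 at 9.66 and Krtdap at 8.23, with S100a8 at 9.16 and S100a9 at 7.99. The localized RF-44 held Krt14 at 10.81, with S100a8 at 11.78 and S100a9 at 10.10. In the metastatic FC-279 Krt14 was 9.97, with S100a8 at 9.33 and S100a9 at 7.58. Krtdap was not detected in RF-44 or FC-279. Krtdap was also detected in the localized RF-56, at 6.01. Krt14 and Krtdap were named after their values were seen.

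The localized primary CR-65 was mixed. Its Ltf of 9.33, S100a8 of 13.00, S100a9 of 11.13 and, among the early genes, Ctsg of 6.18 were the highest of the 6 localized primaries. Ngp at 7.96 and Prtn3 at 5.49 were detected below their levels in RF-44, and Camp at 6.08 lay below RF-44 and RF-43. Mpo at 4.63, Elane at 4.84 and Mmp8 at 4.74 were not detected. The CR-147 lung metastasis had Ltf at 9.19 with Camp at 5.75 and Ngp not detected at 4.74. Ltf is also made by glandular and airway epithelium, and the lung epithelium list stood at 12.6 on that array; its part in the Ltf level was not tested. The second Ltf probe was detected on 6 of 27 arrays and correlated with the one used at 0.778.

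**Figure D4:**
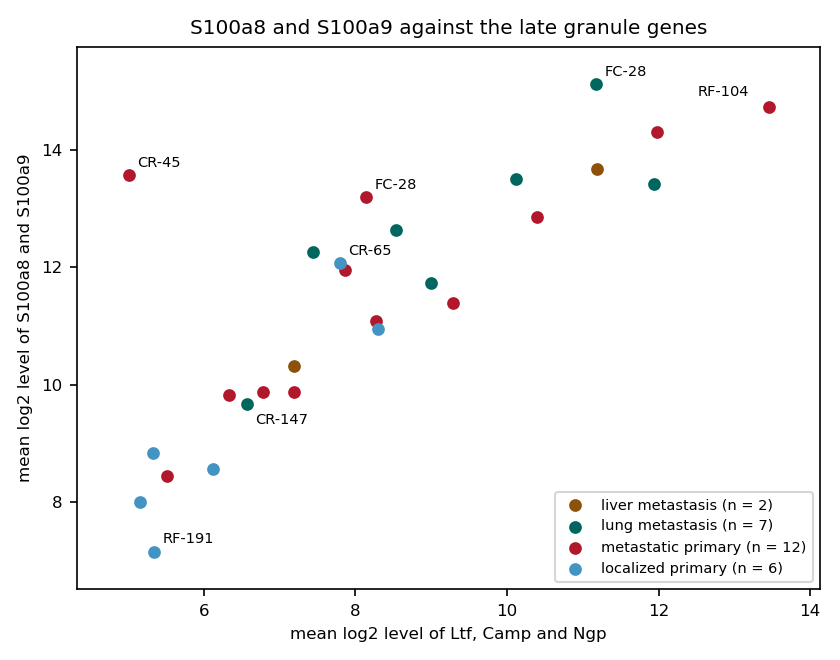
The mean log2 level of Ltf, Camp and Ngp is on the x axis and that of S100a8 and S100a9 on the y axis, 1 point per array. Most arrays run along 1 rising band, and the metastatic primary CR-45 lies far above it, at 5.01 on the x axis and 13.6 on the y axis.

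The first comparison set the 12 metastatic primaries against the 6 localized primaries, which the study screened for genes of metastasis. All 9 genes that could be tested had higher means in the metastatic primaries, by 1.51 to 2.70 log2 units, and 0 of the 9 passed an adjusted p of 0.05. Across all 11684 genes tested, 0% passed as higher and 0.00856% as lower, which is 1 gene. At an unadjusted p under 0.05, 3 of the 9 were higher (S100a9, S100a8 and Camp), against 2.91% of all genes, and 0 were lower, against 3.62%. The median log2 difference of the 9 was 2.0, beside 0.0086 over all genes. Mmp8 was detected on 1 of the 18 primaries and was not tested.

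Among the early granule genes, Mpo had a lowest, median and highest level of 4.92, 10.27 and 14.33 in metastatic primaries and of 4.63, 7.90 and 12.08 in localized primaries. Only RF-104 and RF-379 exceeded the highest localized tumour, so the groups overlapped over nearly their whole range. The mean was 10.23 ± 2.38 in metastatic primaries and 8.04 ± 3.11 in localized primaries (SD, n = 12 and 6), a log2 difference of 2.20 ± 1.22 (SE) with an adjusted p of 0.787. Within the arrays of higher background signal, 10 metastatic and 2 localized primaries, the Mpo difference was -0.09. On the arrays of lower background signal Mpo was detected too seldom to be tested. Its levels there were 14.33 in RF-104 and 8.18 in FC-28, against 4.63, 4.69, 7.63 and 11.03 in the localized primaries. Without the 4 primaries of few osteoblast transcripts the Mpo difference was 1.25. Elane ran from 4.80 through 5.96 to 12.37 in metastatic primaries and from 4.84 through 5.02 to 5.93 in localized primaries. It was detected in 11 of 12 metastatic primaries and in 1 of 6 localized primaries, RF-44, and 6 metastatic primaries lay above the highest localized one. Some of these calls lie at the detection cut. Elane counted as detected in the metastatic FC-279 at 5.23 and as not detected in the localized CR-93 at 5.22. The difference of Elane was 1.76 ± 0.88 (SE, adjusted p 0.771). Prtn3 and Ctsg were detected in 8 and 9 of the 12 metastatic primaries and in 2 each of the 6 localized primaries, with differences of 1.55 and 1.51 (adjusted p 0.804 and 0.796). Without RF-104 the differences of Elane, Prtn3 and Ctsg were 1.26, 1.04 and 1.04.

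Among the late granule genes, Camp ran from 4.71 through 8.01 to 13.43 in metastatic primaries and from 5.44 through 5.95 to 8.52 in localized primaries. Of the 12 metastatic primaries, 4 lay above the highest localized tumour, RF-44, and CR-45 lay below the lowest. The mean of Camp was 8.52 ± 2.59 in metastatic primaries and 6.28 ± 1.13 in localized primaries (SD, n = 12 and 6), a difference of 2.24 ± 1.04 (SE, adjusted p 0.754). Ngp, detected in 10 of 12 metastatic and 3 of 6 localized primaries, differed by 2.0 (adjusted p 0.773), and Ltf by 1.79 (adjusted p 0.825). For both genes the groups overlapped, with 4 metastatic primaries above the highest localized one.

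S100a9 ran from 7.58 through 11.15 to 14.25 in metastatic primaries and from 6.74 through 7.84 to 11.13 in localized primaries. Of the 12 metastatic primaries, 6 lay above CR-65, the highest localized tumour, and the groups overlapped. Its mean was 11.18 ± 2.08 in metastatic primaries and 8.48 ± 1.74 in localized primaries (SD, n = 12 and 6), a difference of 2.70 ± 0.92 (SE) with an unadjusted p of 0.00842 and an adjusted p of 0.628 in limma. S100a8 differed by 2.29 ± 0.91 (SE, adjusted p 0.709), with means of 12.34 ± 1.95 in metastatic and 10.05 ± 2.01 in localized primaries. Within the arrays of higher background signal S100a8 and S100a9 differed by 3.53 and 3.37, and within those of lower signal, 2 metastatic and 4 localized primaries, by 3.65 and 4.34; the lowest adjusted p of these was 0.734.

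The other marrow lineages were set beside these values. Of 7 erythroid genes tested, 0 passed the threshold and their median difference was 2.07, with Slc4a1, the anion exchanger of red cells, at 3.40 (adjusted p 0.484). The erythroid list averaged 6.53 to 9.88 in metastatic primaries and 5.86 to 7.79 in localized primaries. The median was 1.28 over 6 other late granule genes, 0.62 over 9 mature neutrophil genes, 0.68 over 6 megakaryocyte genes and -0.12 over 5 other early granulocyte genes, and none of these genes passed. The erythroid median and the differences of the 9 granule genes tested thus had the same sign, which the other early granulocyte median did not share. The part of marrow cells or blood in a sample was not tested.

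The second comparison set each of 7 lung metastases against its own primary. Of the 9 genes tested, 0 passed in either direction, against 8.28% of 11214 genes that passed, 5.69% as higher and 2.59% as lower. The differences ran from -0.53 for Mpo to 1.55 for Ltf, with a median of 0.23, beside -0.06 over all genes. At an unadjusted p under 0.05 the count was also 0, against 12.9% of all genes higher and 13.3% lower, and the adjusted p ran from 0.302 to 0.991.

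Single pairs differed in opposite directions. In the pairs CRE-155, FC-279, RF-212 and FC-28 all 10 genes had a higher value in the lung metastasis, and in RF-364, CR-147 and RF-379 all but Mmp8 in RF-379 (0.06) had a lower one. Some of these signs rest on little. In RF-212 the difference was 0.05 for Elane and 0.20 for Ctsg, which was not detected in either sample of that pair, and Mmp8 was detected in neither sample of any pair but FC-28. Mpo was 12.01 in the CRE-155 lung metastasis, against 9.07 in its primary, and Elane was 10.05 there, against 6.15. In CR-147, on the other hand, Mpo was 5.41 in the lung metastasis, against 10.27 in the primary, and Elane was not detected at 4.79, against 7.71. The CRE-155 lung metastasis also had the highest Prtn3 and Ctsg of the 7 lung metastases, at 10.42 and 9.75.

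The 3 pairs with lower levels are the 3 whose lung metastasis held hepatocyte transcripts, at list means of 9.55 to 10.6, against 4.82 to 6.25 in the other 4 lung metastases. These 3 pairs also had the highest primaries of the 7 for the mean of Ltf, Camp and Ngp, at 9.29 to 11.99, against 5.51 to 8.27. For the mean of Elane, Prtn3 and Ctsg they lay at 7.29 to 10.20, against 4.98 to 6.18. Mpo did not divide the primaries in this way, with 10.48 in RF-212 and 10.27 in RF-364 and CR-147. Nor did the mean of S100a8 and S100a9, at 13.19 in FC-28 and 11.39 in CR-147. The parts of liver tissue and of the level in the primary were not tested. The hepatocyte list averaged 4.67 to 6.29 in the 7 primaries of these pairs. The lung epithelium list did not divide the pairs in this way, at 12.6, 13.6 and 13.9 in these 3 lung metastases and 13.4 to 14.4 in the others.

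**Figure D5:**
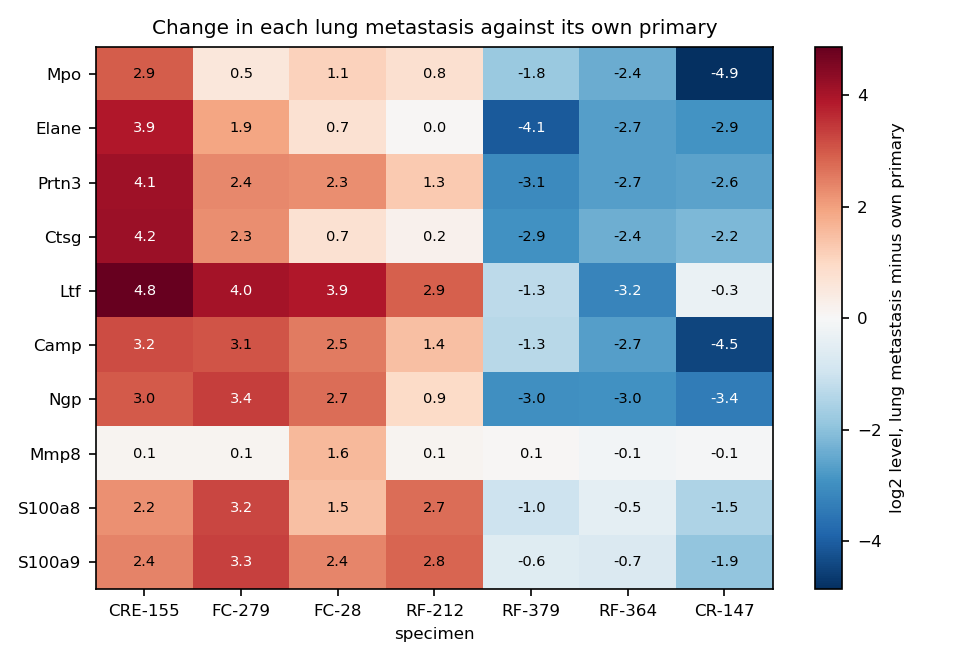
Rows are the 10 genes and columns the 7 specimens, and each cell gives the log2 level of the lung metastasis minus that of its own primary, in red where higher and in blue where lower. All values are above 0 in the columns CRE-155, FC-279, FC-28 and RF-212, and below 0 in RF-379, RF-364 and CR-147 except for Mmp8 in RF-379; in RF-212 the values of Elane and Ctsg lie near 0, as do those of Mmp8 in 6 of the 7 columns.

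In the 3 lower pairs, the log2 difference of Mpo was -1.80 in RF-379, -2.41 in RF-364 and -4.86 in CR-147. The mean of Elane, Prtn3 and Ctsg differed by -3.39, -2.58 and -2.56 in the same order of pairs, that of Ltf, Camp and Ngp by -1.86, -2.96 and -2.73, and that of S100a8 and S100a9 by -0.81, -0.59 and -1.71. Elane, Prtn3 and Ctsg were not detected in the RF-364 and CR-147 lung metastases, nor Ngp in that of CR-147, so their differences there are set by the detection limit, and the sizes of the sets cannot be ranked. In the higher pairs CRE-155, FC-279, RF-212 and FC-28, the mean of S100a8 and S100a9 differed by 2.32, 3.27, 2.76 and 1.92. Ltf differed by 2.89 in RF-212 to 4.84 in CRE-155 over these 4 pairs, while Mpo differed by 0.54 to 2.94. These differences between genes were not tested.

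Ltf had a lowest, median and highest level of 7.82, 10.02 and 12.57 in lung metastases, and 5.98, 8.19 and 12.34 in their primaries. It was the tested gene with the largest mean difference, 10.33 ± 1.68 in lung metastases and 8.79 ± 2.31 in primaries (SD, n = 7 each), 1.55 ± 0.96 (SE, adjusted p 0.324). S100a8 was 10.23, 13.02 and 15.33 in lung metastases and 9.33, 12.02 and 14.75 in primaries, a difference of 0.94 ± 0.60 (SE, adjusted p 0.334). S100a9 differed by 1.11 ± 0.65 (SE, adjusted p 0.302). For all 3 genes the FC-28 or CRE-155 lung metastasis was the highest and the groups overlapped. Without the 3 pairs with hepatocyte transcripts, 4 of the 7 genes then tested rose in the lung metastases, against 1.23% of 9703 genes higher and 0.165% lower: Ltf by 3.91 (adjusted p 0.00913), S100a9 by 2.73 (adjusted p 0.0106), Camp by 2.55 (adjusted p 0.0287) and S100a8 by 2.40 (adjusted p 0.0303). The pairs left are those in which these genes were higher, so this count follows from which pairs were set aside.

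All 7 lung metastases lay on arrays of lower background signal, against 1 of their 7 primaries, so array background and tissue cannot be told apart over these pairs. In FC-28, the pair with both arrays of lower background, Mpo was higher by 1.13, Ltf by 3.88, S100a8 by 1.46 and S100a9 by 2.39. Mmp8 was 6.15 in the FC-28 lung metastasis, against 4.58 in its primary, where it was not detected. On this lung array the mature neutrophil list reached 10.2, the highest of the 27 arrays.

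Other granule genes were tested in the same fit, in which 5.69% of all genes passed as higher and 2.59% as lower. Of 6 other late granule genes tested, 3 rose in lung metastases: Lcn2 (lipocalin 2, a siderophore-binding protein) by 2.93 ± 0.39, Chil3 (a chitinase-like protein) by 2.92 ± 0.42 and Pglyrp1 (a peptidoglycan recognition protein) by 2.01 ± 0.52 (SE, adjusted p 0.00195, 0.00305 and 0.0486 in limma). Lcn2 and Chil3 were higher in 7 of 7 pairs, including the 3 pairs in which the 9 tested genes were lower, and Pglyrp1 in 6 of 7. Lcn2 is also an epithelial and acute-phase gene and Chil3 a gene of alveolar macrophages, and the lung epithelium list rose in the same pairs, with 6 of 6 genes past the threshold and a median of 8.56. The part of lung tissue in Lcn2, Chil3 and Pglyrp1 was not tested. Of 10 macrophage genes tested, 2 rose, Marco, a scavenger receptor of alveolar macrophages, by 2.61 and Lyz1 by 0.64 (adjusted p 0.000251 and 0.0457), and the median of the list was -0.06.

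Of 9 mature neutrophil genes, 0 passed in lung metastases, with a median of 0.91, and among them Cxcr2 differed by 0.91 and Csf3r, the receptor of granulocyte colony-stimulating factor, by 0.96 (adjusted p 0.244 and 0.161). Of 8 myeloid transcription factors, Cebpb alone rose, by 0.52 (adjusted p 0.046). Of 10 signals of granulopoiesis and neutrophil traffic, Cxcr4, the receptor that holds neutrophils in marrow, rose by 0.82 and Kit, the stem cell factor receptor, by 1.96 (adjusted p 0.0424 and 0.00692). Csf3, the granulocyte growth factor itself, differed by -0.01 (adjusted p 0.959). Of 7 granule protease inhibitors, Serpina3n rose by 1.24 and Wfdc21 by 1.45 (adjusted p 0.0288 and 0.0408). Of 7 erythroid genes, Alas2 rose by 1.82 (adjusted p 0.039), and of 6 megakaryocyte genes Ppbp rose by 1.87 (adjusted p 0.0417). Of 3 genes of the B cell precursor list, Cd79b rose by 1.43 (adjusted p 0.0462). Over all 11214 genes tested, 5.69% passed as higher and 2.59% as lower, so several of these counts lie near that share. The list medians were 0.17 for the transcription factors, 0.29 for the signals and 1.07 for the inhibitors. They were 0.22 for the erythroid, 1.21 for the megakaryocyte and 1.43 for the B cell precursor genes. The part of lung tissue in the single genes named was not tested. With array background as a covariate the count over all genes fell from 929 to 26. The list genes were not followed in that alternative.

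The liver metastases were compared with the 7 lung metastases and with the 12 metastatic primaries, in fits that share the liver samples. Against lung metastases 0 of 10 genes passed, beside 9% of 13517 genes, 5.76% higher and 3.24% lower, with differences from -1.02 for Ltf to 0.94 for Elane and adjusted p from 0.856 to 0.996. Against metastatic primaries 0 of 10 passed, beside 9.37% of genes, 7.09% higher and 2.28% lower, with differences from -0.65 for Mpo to 1.07 for Ngp and adjusted p from 0.764 to 0.911. At an unadjusted p under 0.05 the count was 0 in both, beside 9% of genes higher and 10.1% lower against lung metastases and 10.5% higher and 10.3% lower against metastatic primaries.

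The pair of liver metastases lay far apart for 9 of the 10 genes. RF-342 held Mpo at 11.75, Elane at 9.60, Prtn3 at 10.38 and Ctsg at 9.05, against 6.80, 5.54, 5.03 and 4.84 in CR-147, where Prtn3 and Ctsg were not detected. The late genes Ltf, Camp and Ngp were 11.61, 10.92 and 11.02 in RF-342 and 7.39, 7.48 and 6.71 in CR-147, and S100a8 was 14.32 and 10.91. Mmp8 was not detected in either. In CR-147, Mpo was 6.80 in the liver metastasis and 5.41 in the lung metastasis, against 10.27 in the primary, so both metastases of this specimen lay below the primary for Mpo. Without the CR-147 liver metastasis, the difference from metastatic primaries was 1.52 for Mpo and 3.65 for Prtn3, and without RF-342 it was -2.34 and -1.37; the remaining sample was assumed to vary like the other groups in these fits, and the lowest adjusted p was 0.637.

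In the liver metastases Lcn2 averaged 14.65 ± 0.65, against 9.31 ± 1.85 in metastatic primaries (SD, n = 2 and 12), and rose by 5.62 (adjusted p 0.000373). Of the other 8 late granule genes tested, none passed, beside 7.09% of all genes as higher and 2.28% as lower. Cebpa, a transcription factor of both granulocyte precursors and hepatocytes, rose by 1.27 (adjusted p 0.0107), and the protease inhibitors Serpina1a and Wfdc21 rose by 6.28 and 4.70 (adjusted p 2.71e-08 and 4.84e-05). The median of the 7 protease inhibitors tested was 0.37. All 8 genes of the hepatocyte list rose in the same comparison, and Serpina1a is on that list too. The part of liver tissue in Lcn2, Cebpa, Serpina1a and Wfdc21 was not tested.

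The genes most like the granule genes over the 18 primaries were ranked by Spearman correlation among 11350 genes. For the mean of the 4 early genes they were Msrb1 at 0.839, Tm2d2 at 0.804, Sptb, the erythroid spectrin chain, at 0.794, Tacc1 at 0.779 and Limd1 at 0.775. Over the 7 lung metastases Msrb1 gave 0.857 and Sptb 0.786 with the same mean, while Tm2d2 gave 0 and Limd1 -0.36. For the mean of the 4 late genes they were Fkbp5 at 0.794, Msrb1 at 0.767, Trim10, an erythroid gene, at 0.767, Treml1, a platelet gene, at 0.754 and the granule gene Chil3 at 0.742. Over the 7 lung metastases these 5 genes gave 0.536, 0.857, 0.607, 0.321 and 0.107 with the late mean, in the same order. Because Mpo parted from the proteases over the primaries, the ranking was repeated for each after the data were seen. The mean of Elane, Prtn3 and Ctsg was most like Slc4a1 at 0.851, Trim10 at 0.849 and Retnlg at 0.847. Over the 7 lung metastases Slc4a1 gave 0.286, Trim10 0.357 and Retnlg 0.679 with this mean. Mpo was most like Limd1 at 0.847, the class I histocompatibility gene H2-K1 at 0.812 and Tacc1 at 0.798, and of these H2-K1 gave 0.929 and Limd1 -0.68 over the 7 lung metastases. These correlations are descriptions over arrays that share 1 normalization.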

How the data were processed

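Per the file headers, each of the 27 bead files holds the average signal of 45281 probes, an intensity on a linear scale that the authors deposited without normalization. They also hold a detection score from 0 to 1, deposited by the authors, of which 1 minus the score served as the detection p-value, and the number of beads per probe. The authors' deposited series matrix holds normalized log2 values and served as an alternative. BeadStudio is named in the submitters' processing notes, with no version or role. Probe names came from the platform annotation, joined to the bead files through the rank of each probe on the 27 arrays, which matched all 45281 probes uniquely; 34885 probes carried 1 symbol and 18 carried several and were not used.

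Intensities were corrected and quantile normalized over all arrays with neqc of limma 3.58.1 (R 4.3.3, offset of 16), and the brightest probe stood for a gene. A probe with a detection p under 0.05 counted as detected. Genes detected on at least 6 of 18 primaries, 7 of 14 paired arrays or 2 of 21 arrays in the liver fits were tested with lmFit and eBayes, with Benjamini-Hochberg adjustment over all genes tested. The lung fit had the specimen as a block, and the liver fits, over liver and lung metastases and metastatic primaries, had it as a random block (statmod 1.5.0, consensus correlation 0.355). Pairing comes from the specimen identifiers: deviations from the group means correlated at 0.287 to 0.494 within the 7 pairs, and 5 of 7 lung metastases correlated best with their own primary. The highest correlation between any 2 arrays was 0.978.

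The members, the marker lists and the rule for named genes (the 10 members, the 5 genes most like each mean, list genes past the threshold and otherwise the first of each list) were chosen with earlier results of these data known. Promoters are from RefSeq. The scripts were tested on simulated data. The number of arrays limits the precision. The alternatives were the authors' values, other scaling, background correction, offset, detection filters, probes, array weights, background signal, letter codes of the specimens, blocks, and single samples left out.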

Additional observations from a re-analysis of the deposited data

Results flagged for a closer look

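Within the groups of 6 and 7 samples, 20 sets of values of single genes were examined for a sample far from the rest, and 3 held one; chance gives about 1 in 20. Among the localized primaries, RF-44 stood apart for Elane, at 5.931 against 4.837 to 5.222 in the other 5, and for Camp, at 8.517 against 5.439 to 6.198. RF-44 was the only localized primary in which Elane was detected. Among the lung metastases, FC-28 stood apart for Mmp8, at 6.149 against 4.463 to 4.686 in the other 6, and it was the only lung metastasis in which Mmp8 was detected.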

How the results depend on the processing

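The count of granule genes past the threshold stayed at 0 in 33 of 33 alternatives for metastatic against localized primaries (lowest adjusted p 0.502), in 18 of 19 for lung metastases against their own primaries and in 20 of 20 for each liver comparison (lowest adjusted p 0.65 and 0.594). The exception was the lung comparison without the 3 pairs with hepatocyte transcripts, with 4 genes. Leaving out each replicate in turn gave 0 in each comparison, and without the replicate block that pairs lung metastases with their primaries, or ties the specimens in the liver fits, the count was 0. The median difference of the tested genes ran from 1.54 to 4.32 in the primary comparison. The 4.32 comes from the arrays of lower background signal, 2 metastatic and 4 localized primaries, where only Camp, S100a8 and S100a9 were tested. In the lung comparison the median ran from -0.50 to 2.50, with both signs. The 2.50 comes from the fit without the 3 pairs with hepatocyte transcripts, where Prtn3 and Ctsg were not tested. Mpo changed sign in 1 of 32 alternatives in the primaries, and in the liver against lung comparison in 8 of 20. Over all genes, the lung comparison called 929 genes, against 2668 with median scaling, 26 with array background as a covariate, 532 without the block, 350 to 599 in 6 of the sets that leave out 1 pair, and 135 without the 3 pairs. The liver comparison with metastatic primaries called 1266 genes and 735 with array background as a covariate, and 564 without CR-147; the liver comparison with lung called 1216, and 511 and 750 without CR-147 and RF-342. The primary comparison called 1 gene and 0 to 2 in the alternatives. The cause of these shifts was not tested.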

Other observations

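The genes of the B cell precursor list did not share 1 pattern. In RF-379, Vpreb1 and Igll1, the surrogate light chain genes, were 7.02 and 7.18 in the lung metastasis, against 8.92 and 8.09 in the primary. In RF-104, the primary with the highest granule gene levels, Vpreb1 was 5.11 and Igll1 4.74. Igll1 was detected on no other metastatic primary than RF-379, on no other lung metastasis and on no localized primary. Vpreb3, of the same list, was 8.93 in the RF-342 liver metastasis, was detected in all 7 lung metastases, at 5.58 to 8.48, and was detected in 1 of 12 metastatic primaries, RF-379 at 7.63, and in 0 of 6 localized primaries. Of the 7 other early granulocyte genes on the array, 4 were highest in RF-104 among the 27 arrays, Ms4a3 at 10.30, Cebpe at 9.05, Gfi1 at 8.40 and Cst7 at 7.34. The remaining 3 were not: Serpinb1a was 8.43 in RF-104, against 8.99 in CR-45, Myb was 5.56, against 5.82 in the RF-342 liver metastasis, and Cd63, at 14.17, was lowest in RF-104 among the 12 metastatic primaries. The CRE-155 lung metastasis had Ms4a3 at 8.80, against 4.95 in its primary.

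The neutrophil-attracting chemokine gene Cxcl1 was 10.95 and 11.52 in the liver metastases, ran from 6.48 to 8.33 in lung metastases, from 5.65 to 12.84 in metastatic primaries and from 6.80 to 11.33 in localized primaries. The highest metastatic primaries were CR-45 at 12.84 and FC-28 at 12.44, and the highest localized primary was CR-65 at 11.33, all with few osteoblast transcripts. The localized RF-56, also with few osteoblast transcripts, had 8.79. That lay below RF-104 at 11.11 and RF-229 at 9.96, metastatic primaries with osteoblast transcripts. The pattern was noticed in these data and was not tested.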
